A study of Mus musculus with 6 samples.

Results

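Trdv1-Trdd2-Trdj1 joins without N nucleotides are rearranged δ-chain genes in which, by the deposited segment borders, no base is inserted between the V, D and J segments. A recount against the germline, given further on, left unexplained bases in 28 of them while it allowed mismatches inside segments. The joins were taken from the 6 clonotype tables of the first read (R1) as the entries with Trdv1, Trdd2 and Trdj1 whose borders leave 0 bases between V and D and 0 bases between D and J. The rule found 61 entries, which are 51 distinct CDR3 nucleotide sequences (clonotypes) with 14244 reads. All Trdv1-Trdd2-Trdj1 entries number 972 (882 distinct), and the tables as a whole hold 2264 entries (1991 distinct) with 691768 reads. With at least 10 reads per clonotype, 34 entries of 32 distinct joins remained, with 14205 of the 14244 reads.

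The TCR-seq covered γδ T cells of peripheral lymph nodes (pLNs) from adult Vγ4-/-/Vγ6-/- mice, strain B6.Cg-Tcrgtm1lku(B6.Vg4-/-Vg6-/-), which lack the Vγ4 and Vγ6 chains in both groups. All pLN cells had been stimulated with PMA and ionomycin. FACS separated IL-17pos cells, marked by an IL-17 secretion assay, from IL-17neg cells, with 3 samples in each group numbered 13-01, 20-01 and 27-01. The sort used antibodies to TCRγ/δ, TCRβ and CD3e but none to a particular Vγ chain, and the sources used here give neither a more exact age nor what the sample numbers stand for. The tables hold Trd rearrangements alone, so the sorted cell type could not be checked against other markers. Nothing states that the 3 samples of a group came from separate animals, and p-values therefore measure the spread between these samples. The R1 tables of 13-01, 20-01 and 27-01 held 216, 235 and 703 clonotypes in IL-17neg and 177, 279 and 654 in IL-17pos. Both groups thus had the same order by sample number. Whether same-numbered samples are paired could not be decided, and the group tests treat them as unpaired unless a replicate block is named. R1 tables held 95803 to 142169 reads per sample, of which 33771 to 49264 belonged to Trdv1-Trdd2-Trdj1 joins.

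V(D)J recombination cuts the segments open, trims their ends and ligates them, and terminal deoxynucleotidyl transferase (TdT) can add random N nucleotides at the joints. TdT is scarce in the fetal thymus, so δ chains without N nucleotides are typical of early rearrangements. P nucleotides are different: they arise when the hairpin at an untrimmed segment end is opened off centre, and they mirror that end. Mouse Trdd2 carries no stop codon in any reading frame. Its frames are called GGI, EGY and RRD here, after residues that each of them encodes.

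The germline ends that can contribute to these joins are shown first because every join is read against them. In GRCm38 (RefSeq), the Trdv1 bases of the CDR3 lie at chr14:53882205-53882217 in the gene at chr14:53881612-53882217, Trdd2 at chr14:54122226-54122241, and the Trdj1 bases of the CDR3 at chr14:54123138-54123157 in the gene at chr14:54123138-54123188. All lie on the plus strand. Capitals mark bases of Trdd2 in every sequence below.
Trdv1 end: tgtggagggaaag
Trdd2: ATCGGAGGGATACGAG
Trdj1 start: ctaccgacaaactcgtcttt

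A direct join of the whole ends has 49 bases, 1 more than a multiple of 3, and is therefore out of frame. It had 0 reads. Every one of the 51 joins found was in frame, with 0 stop codons. An in-frame join of these segments therefore needs trimming, P nucleotides or other added bases.

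The joins below are named by frame, with letters in order of total reads. They comprise the 9 picked by a naming rule (the most-read join of each sample and of each frame, the 3 joins that occurred in the largest number of samples, and joins with at least 10 reads in 2 samples) and, added after their values were seen, the other joins with at least 10 reads in which all bases could be read from the germline. GGI joins come first.
GGI-c: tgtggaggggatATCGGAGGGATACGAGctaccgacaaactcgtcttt
GGI-e: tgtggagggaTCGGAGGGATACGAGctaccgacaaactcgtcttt
GGI-h: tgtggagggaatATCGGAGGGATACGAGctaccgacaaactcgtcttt
GGI-j: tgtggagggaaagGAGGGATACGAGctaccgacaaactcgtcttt
GGI-a: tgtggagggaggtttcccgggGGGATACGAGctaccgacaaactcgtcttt

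The EGY joins follow.
EGY-a: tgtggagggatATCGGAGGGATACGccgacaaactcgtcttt
EGY-b: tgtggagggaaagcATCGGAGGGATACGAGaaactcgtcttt
EGY-d: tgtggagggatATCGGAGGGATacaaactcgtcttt
EGY-e: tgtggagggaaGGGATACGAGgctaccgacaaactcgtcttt
EGY-f: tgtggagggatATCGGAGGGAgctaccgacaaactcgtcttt
EGY-h: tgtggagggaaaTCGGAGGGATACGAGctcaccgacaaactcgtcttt
EGY-i: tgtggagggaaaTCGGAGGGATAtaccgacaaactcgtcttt

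The RRD joins come last. RRD-b is shown as the only join with whole Trdv1, Trdd2 and Trdj1 ends.
RRD-a: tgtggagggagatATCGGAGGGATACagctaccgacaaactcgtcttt
RRD-b: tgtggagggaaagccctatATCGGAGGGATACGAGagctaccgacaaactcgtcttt
RRD-c: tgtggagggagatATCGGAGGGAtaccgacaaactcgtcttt
RRD-d: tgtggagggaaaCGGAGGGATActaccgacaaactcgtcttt
RRD-e: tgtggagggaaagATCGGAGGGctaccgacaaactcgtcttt
RRD-f: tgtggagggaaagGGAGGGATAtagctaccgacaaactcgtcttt
RRD-h: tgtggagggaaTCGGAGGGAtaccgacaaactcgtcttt
RRD-i: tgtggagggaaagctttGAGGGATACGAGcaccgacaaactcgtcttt

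Joins without N took a larger share of reads in IL-17pos than in IL-17neg samples. They had 4427, 3178 and 4128 reads in IL-17pos 13-01, 20-01 and 27-01, and 541, 247 and 1723 reads in the IL-17neg samples of the same numbers. As a share of all Trdv1-Trdd2-Trdj1 reads, this was 9.51% (95% Wilson interval 9.24 to 9.78), 9.41% (9.10 to 9.73) and 8.38% (8.14 to 8.63) in IL-17pos. The corresponding shares in IL-17neg were 1.58% (1.46 to 1.72), 0.513% (0.453 to 0.581) and 4.51% (4.31 to 4.73). The groups did not overlap, and IL-17neg 27-01 stood closest to the IL-17pos samples. Reads are PCR products without molecular identifiers, so these intervals and all limits for a count of 0 describe counting error only.

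The mean share was 9.10% ± 0.625 (SD, n = 3) in IL-17pos and 2.20% ± 2.07 (SD, n = 3) in IL-17neg, a difference of 6.89 percentage points. An exact two-sided permutation test over 20 assignments gave p = 0.1, the smallest value that 3 against 3 samples allow (adjusted p = 0.3 over 9 group comparisons). None of the group comparisons could therefore pass 0.05. Numbers of clonotypes did not follow the reads: joins without N formed 6, 8 and 17 clonotypes in IL-17neg and 5, 8 and 17 in IL-17pos. Relative to all Trdv1-Trdd2-Trdj1 clonotypes these were 8.70%, 10.4% and 5.48% in IL-17neg and 5.15%, 6.25% and 5.84% in IL-17pos, a difference of -2.44 percentage points (exact permutation p = 0.3, adjusted p = 0.54). It was -1.34 without IL-17neg 20-01 and -3.79 without IL-17neg 27-01. The difference turned to 1.20 percentage points with at least 10 reads per clonotype, where IL-17neg samples held 2, 1 and 10 joins and IL-17pos samples 3, 6 and 12.

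A few clonotypes carried most of these reads. RRD-a alone had 69.9% of the reads without N in IL-17pos 13-01, and GGI-h had 96.8% in IL-17neg 20-01. The most-read join held 58.4% in IL-17neg 13-01 (GGI-e), 24.9% in IL-17neg 27-01 (GGI-c), 30.6% in IL-17pos 20-01 (RRD-b) and 18.5% in IL-17pos 27-01 (GGI-a). Without the most-read join of each sample, the read shares were 0.665%, 0.0167% and 3.43% in IL-17neg and 3.07%, 6.72% and 6.94% in IL-17pos. The groups then overlapped, and the difference was 4.21 percentage points (exact permutation p = 0.2).

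Joins without N of Trdv5, the other V segment amplified, had no such order. Trdv5-Trdd2-Trdj1 joins without N took 27.8%, 6.63% and 10.2% of the reads of that rearrangement in IL-17neg and 12.9%, 13.8% and 8.58% in IL-17pos. The groups overlapped, with a difference of -3.10 percentage points (exact permutation p = 0.9). The Trdv1 share minus the Trdv5 share differed between the groups by 9.99 percentage points (exact permutation p = 0.1). Both values rest on IL-17neg 13-01, without which the Trdv5 difference turned to 3.36 and the Trdv1 minus Trdv5 difference fell to 3.23 percentage points. Of clonotypes, Trdv1 and Trdv5 rearrangements held shares without N of 6.97% ± 2.10 and 7.10% ± 2.48 (SD, n = 6), and the mean difference within samples was -0.131 percentage points (exact sign permutation p = 0.906). With at least 10 reads it was -2.92 (exact sign permutation p = 0.0938). By reads it was -7.68 and with P bases counted as insertions -1.67, each with an exact sign permutation p = 0.03125 before adjustment, the smallest that 6 samples allow. The value by reads also rests largely on IL-17neg 13-01. The IL-17neg mean of the difference by reads was -12.7 percentage points, and -5.90 without that sample.

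The reading frames of Trdd2 were distributed differently among the reads of the groups. GGI joins made up 98.9%, 97.6% and 70.9% of the reads without N in IL-17neg 13-01, 20-01 and 27-01. In the IL-17pos samples of the same numbers they made up 0%, 9.25% and 38.3%. The groups did not overlap, and the difference was -73.3 percentage points (exact permutation p = 0.1, adjusted p = 0.3). Without the most-read join of each sample it was -48.6 percentage points, and the 8 reads left in IL-17neg 20-01 then held 25.0% GGI against 24.3% in IL-17pos 27-01. Of all Trdv1-Trdd2-Trdj1 reads, GGI joins took 1.57%, 0.501% and 3.20% in IL-17neg and 0%, 0.871% and 3.21% in IL-17pos. These shares overlapped, with a difference of -0.395 percentage points. The lower GGI share in IL-17pos thus holds relative to the reads without N only.

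EGY joins showed the opposite order among the reads without N. Their share was 0.185%, 1.21% and 0% in IL-17neg and 30.1%, 41.4% and 38.3% in IL-17pos, without overlap, a difference of 36.1 percentage points (exact permutation p = 0.1, adjusted p = 0.3) that was 56.2 without the most-read joins. RRD joins had 0.924%, 1.21% and 29.0% in IL-17neg and 69.9%, 49.4% and 23.3% in IL-17pos. Here the groups overlapped, and the difference of 37.2 percentage points (exact permutation p = 0.2, adjusted p = 0.45) turned to -7.54 without the most-read join of each sample. Of all Trdv1-Trdd2-Trdj1 reads, EGY joins took 0.00293%, 0.00624% and 0% in IL-17neg and 2.86%, 3.89% and 3.21% in IL-17pos. RRD joins took 0.0146%, 0.00624% and 1.31% in IL-17neg and 6.64%, 4.65% and 1.95% in IL-17pos. On this base neither frame overlapped between the groups.

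N-added joins of the same segments, which have at least 1 inserted base, gave the frames in each sample as a reference. GGI took 31.8%, 56.5% and 41.1% of their reads in IL-17neg and 45.8%, 35.3% and 39.5% in IL-17pos, with a difference of -2.94 percentage points (exact permutation p = 0.8). EGY took 27.5% to 38.0% in IL-17neg and 32.4% to 36.7% in IL-17pos (exact permutation p = 0.6). When the N-added share was subtracted in each sample, the groups differed by -70.3 percentage points for GGI and by 33.8 for EGY, each without overlap (exact permutation p = 0.1 for each of the 3 frames tested). For RRD this difference was 37.0 percentage points. Counted by clonotypes rather than reads, frames of joins without N and N-added joins of the same sample differed by -7.15 percentage points for GGI, 4.49 for EGY and 2.19 for RRD (exact sign permutation p = 0.625, 0.719 and 0.563), each less than the spread over the 6 samples. All 3 turned direction with at least 10 reads, to 11.4, -6.70 and -4.35, and without entries under 10 reads seen 50 times higher in another sample, to 8.27, -3.79 and -4.91. These values pool groups whose means had opposite directions: the mean difference was 15.5 in IL-17neg and -29.8 in IL-17pos for GGI, and -14.5 and 23.5 for EGY. IL-17neg 20-01 had the direction of the IL-17pos samples, with -14.7 for GGI and 7.07 for EGY. Between the groups, the frame shares weighted by clonotypes differed by -48.2 percentage points for GGI and 39.0 for EGY (exact permutation p = 0.1 for each) and by 11.2 for RRD (exact permutation p = 0.2).

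Of the 51 joins, 24 had GGI, 14 EGY and 12 RRD, and 1 of 2 reads held too few Trdd2 bases to be placed. With at least 10 reads, 10 GGI joins occurred in IL-17neg only and 4 in IL-17pos only, whereas 9 of 9 EGY joins occurred in IL-17pos only. Of the 9 RRD joins, 2 occurred in IL-17neg only, 6 in IL-17pos only and 1 in both. At this depth nearly every join is found in a single group: of all 32 joins without N, 12 occurred in IL-17neg only and 19 in IL-17pos only, and of the 515 N-added joins 221 and 293, respectively. N-added GGI joins split into 86 in IL-17neg only and 120 in IL-17pos only, and N-added EGY joins into 74 and 97.

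The 4 GGI joins GGI-c, GGI-e, GGI-h and GGI-j each occurred in a single sample. GGI-e had 316 reads and GGI-j 217 reads in IL-17neg 13-01, GGI-h had 239 reads in IL-17neg 20-01, and GGI-c had 429 reads in IL-17neg 27-01. None had a read in an IL-17pos sample, where 0 reads allow a share of up to 0.00644%, 0.00888% and 0.00609% of the Trdv1-Trdd2-Trdj1 reads in 13-01, 20-01 and 27-01. Presence in 1 sample was the rule, for 42 of the 51 joins without N and 764 of the 831 N-added joins. They end alike: the untrimmed 3′ end of Trdd2 passes directly into whole Trdj1. This arrangement was found in 12 joins, and since it fixes Trdd2 relative to Trdj1, 12 of 12 had the GGI frame. They differ at the V side, where GGI-j kept all of Trdv1, GGI-h lost 2 bases, GGI-e 3 and GGI-c 4.

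GGI-a, the most-read GGI join, was of another kind. It had 764 reads, all in IL-17pos 27-01, and 11 bases between Trdv1 and Trdd2 that match no germline end, although its deposited borders leave no gap. All GGI reads in IL-17pos belonged to joins in which the recount left unexplained bases. Of the GGI joins without such bases, IL-17neg held 1206 reads and IL-17pos 0. GGI-d, with 369 reads in IL-17pos 27-01 and 1 in IL-17neg 20-01, had no base between Trdv1 and Trdd2. Its 1 unexplained base was a mismatch near the start of Trdj1, where the recount accepts none. The 0 in IL-17pos therefore depends on how mismatches are treated. The 1206 reads include GGI-o, GGI-s and GGI-x, with 2, 1 and 1 reads, which differ from the germline by mismatches that the recount allowed.

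EGY joins read entirely from the germline had 3424 reads in IL-17pos and 4 in IL-17neg. EGY-a had 667 reads in IL-17pos 20-01 and 225 in IL-17pos 27-01, and none in the other samples. EGY-b had 873 reads in IL-17pos 13-01 and 1 in IL-17neg 20-01. EGY-e had 458 reads in IL-17pos 13-01 and 1 in IL-17neg 13-01. EGY joins were thus high in each IL-17pos sample and at single reads or 0 in IL-17neg.

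EGY-d had 527 and EGY-f 327 reads in IL-17pos 27-01, each with 1 read in IL-17neg 20-01. EGY-h had 240 reads in IL-17pos 27-01, and EGY-i had 107 reads in IL-17pos 20-01. EGY-a, EGY-d and EGY-f begin alike, with Trdv1 trimmed by 3 bases, 1 P base and the whole 5′ end of Trdd2, and they differ in how much of Trdd2 and Trdj1 was removed. EGY-b holds all of Trdv1 and Trdd2 and lost 8 bases of Trdj1. All 4 EGY reads in IL-17neg, 1 for each of 4 joins, repeated sequences that had at least 327 reads in IL-17pos.

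RRD-a was the most-read join of all, with 3093 reads in IL-17pos 13-01, 5 in IL-17neg 13-01 and 1 in IL-17neg 20-01. It joins Trdv1 trimmed by 3 bases through 3 P bases to Trdd2 trimmed by 3 bases at its 3′ end, and through 2 P bases to whole Trdj1. RRD-c shares the V side of RRD-a and reached 595 reads in IL-17pos 20-01 and 119 in IL-17neg 27-01. It was the single join without N with at least 10 reads in both groups, although the tables of the second read held it only in IL-17pos 20-01, with 306 reads. This V side recurred in 3 joins, which had at least 10 reads in 3 samples.

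RRD-b had 973 reads, all in IL-17pos 20-01, with 5 P bases and 3 unexplained bases. RRD-d had 640 reads in IL-17pos 27-01 and 2 in IL-17neg 20-01. RRD-e had 209 reads in IL-17neg 27-01, where whole Trdv1 meets Trdd2 without its last 7 bases and whole Trdj1. RRD-f, RRD-h and RRD-i had 196, 73 and 50 reads in IL-17pos 27-01. The RRD joins were therefore found at high reads in all IL-17pos samples and in IL-17neg 27-01.

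Frame went with the 3′ end of Trdd2, in part by construction. In an in-frame join the frame is fixed by the trimming of that end and of Trdj1 and by any bases between them. The 3′ end of Trdd2 was whole in 23 of 24 GGI joins, 7 of 14 EGY joins and 2 of 12 RRD joins. A median of 15, 11 and 10 Trdd2 bases remained, respectively. With at least 10 reads the 3′ end was whole in 13 GGI, 4 EGY and 2 RRD joins.

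Every segment end was trimmed in some joins and whole in others. Over the 51 joins, Trdv1 lost 0 to 7 of its 13 bases (median 2) and Trdj1 lost 0 to 11 of 20 (median 1). Trdd2 lost up to 8 bases at its 5′ end and up to 7 at its 3′ end, and a median of 14 of its 16 bases remained. The largest losses of Trdv1, Trdj1 and the 5′ end of Trdd2 belonged to entries of 1 or 2 reads, and among joins with at least 10 reads these ends lost at most 4, 8 and 6 bases, respectively. Trdv1 was whole in 15 joins, Trdj1 in 22, the 5′ end of Trdd2 in 25, its 3′ end in 32 and all of Trdd2 in 15. The joins encoded CDR3s of 11 to 20 residues, with a median of 16.

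With each clonotype counted, trimming did not differ between the groups beyond the spread of the samples. Per clonotype, Trdv1 lost a mean of 1.83, 1.88 and 2.12 bases in IL-17neg and 1.40, 2.25 and 1.82 in IL-17pos (difference -0.117, exact permutation p = 0.7). Trdd2 lost 2.0, 0.250 and 1.19 bases at its 5′ end in IL-17neg and 2.40, 0.875 and 2.24 in IL-17pos (difference 0.691, exact permutation p = 0.4). At its 3′ end it lost 0.500, 2.25 and 1.38 bases in IL-17neg and 0.600, 2.0 and 2.76 in IL-17pos (difference 0.413, exact permutation p = 0.7). The groups overlapped at each of these ends. For Trdj1 the losses were 1.00, 2.13 and 1.35 bases in IL-17neg and 4.20, 1.25 and 2.0 in IL-17pos (difference 0.991, exact permutation p = 0.5), and the highest value belonged to IL-17pos 13-01 with 5 clonotypes, without which the difference was 0.132. With at least 10 reads per clonotype, Trdj1 lost 0, 0 and 1.3 bases in IL-17neg and 2.67, 1.33 and 1.58 in IL-17pos, without overlap (difference 1.43, exact permutation p = 0.1). The difference at the 3′ end of Trdd2 was then 1.13 bases (exact permutation p = 0.2). IL-17neg 13-01 and 20-01 rest on 2 and 1 joins in this count, and in the tables of the second read the Trdj1 difference was 0.0833 bases with overlapping groups (exact permutation p = 0.9).

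Joins without N were also set against N-added joins within each sample. Trdv1 trimming was 0.289 bases higher without N (5 of 6 samples higher, exact sign permutation p = 0.0938, adjusted p = 0.5 over 8 within-sample comparisons). The retained length of Trdd2 differed by 0.347 bases (5 of 6 samples higher, exact sign permutation p = 0.531) and Trdj1 trimming by 0.214 bases (3 of 6 samples higher, exact sign permutation p = 0.906). None of these 3 measures differed beyond the spread over samples, and the ends of Trdd2 were not compared separately.

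Against the germline, the joins without N split into those whose bases were assigned in full and those with bases left unexplained. In 23 of the 51 joins, with 9620 reads (67.5%), every base was assigned to Trdv1, Trdd2, Trdj1 or P nucleotides, with mismatches allowed inside a segment. Among them RRD-j, GGI-o, GGI-s and GGI-x, with 1 to 3 reads each, differ from the germline by such mismatches. The 18 joins with at least 10 reads (9612 reads) match it at every base. Of these 23 joins, 16 held P bases and 10 held bases that could belong to either of 2 neighbouring segments. The recount assigned 7 to germline segments alone, among them RRD-j with its mismatch. The other 28 joins, with 4624 reads, held 1 to 14 unexplained bases inside the deposited borders. Among these 28, the V border covered more than the 13 Trdv1 bases in 10 and the D border more than the 16 Trdd2 bases in 6. Over all 51 joins these counts were 12 and 10. In many joins the J border also covered more than the 20 Trdj1 bases, as with 22 in GGI-c. Some of the 28 may need no added base, because a mismatch near a segment end also left bases unexplained. GGI-d, with 369 reads in IL-17pos 27-01, was such a join. No Trdv1-Trdd2-Trdj1 entry outside the 61 became free of N in this recount.

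Counting only the joins assigned in full to germline segments and P bases, the read shares were 1.58%, 0.511% and 1.99% in IL-17neg and 9.50%, 4.05% and 4.63% in IL-17pos. The groups still did not overlap, with a difference of 4.70 percentage points (exact permutation p = 0.1). The share of 9.50% in IL-17pos 13-01 raised this difference, which was not computed without that sample. When P bases were counted as insertions too, 8 entries were left, with 1.56%, 0.00416% and 0.548% in IL-17neg and 0%, 0.317% and 1.45% in IL-17pos. The difference then was -0.114 percentage points (exact permutation p = 0.7), and the groups overlapped.

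Of the 51 joins, 9 (17.6%) were found in 2 or more samples, 8 of them in both groups and RRD-a in the most, 3 samples. Of 831 N-added joins, 67 (8.06%) were found in 2 or more samples. With at least 10 reads, 2 of 32 joins without N (6.25%) and 3 of 515 N-added joins (0.583%) were shared. The shared pair without N was EGY-a, between IL-17pos 20-01 and 27-01, and RRD-c, between IL-17pos 20-01 and IL-17neg 27-01. Within samples, the share of clonotypes found in another sample was 33.3%, 75.0% and 5.88% without N against 34.9%, 52.2% and 6.14% N-added in IL-17neg. In IL-17pos it was 60.0%, 25.0% and 29.4% against 28.3%, 10.8% and 11.7%. The mean difference was 14.1 percentage points ± 13.1 (SD, n = 6), higher in 4 of 6 samples (exact sign permutation p = 0.125, adjusted p = 0.5). It was 7.40 with at least 10 reads and 5.36 without entries under 10 reads whose sequence had at least 50 times more reads in another sample.

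Sharing rested mostly on entries with few reads. The 27 entries under 10 reads had 39 reads in all and at most 5 each. Of these, 8 repeated a join with at least 50 times more reads in another sample. These were 8 of the 18 low entries in IL-17neg and 0 of the 9 in IL-17pos. Among N-added entries under 10 reads, 53 of 203 in IL-17neg and 24 of 190 in IL-17pos did the same. A comparison with similar sequences found 16 entries within 2 mismatches of a join with at least 50 times more reads in the same sample (1 entry met both descriptions), and 4 met neither. Whether these low entries are separate rearrangements was not tested.

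The tables of the second read (R2) held 21 of the 32 joins with at least 10 reads and 0 of the joins below that. RRD-a had 1553 reads there, EGY-b 493, RRD-b 391 and GGI-e 160. GGI-c and EGY-h, with 429 and 240 R1 reads, had 0 reads there, and IL-17neg 27-01 held 2 joins without N in R2 against 17 in R1. The read share without N in R2 was 1.80%, 0.500% and 2.47% in IL-17neg and 12.7%, 15.3% and 12.6% in IL-17pos, again without overlap (difference 11.9 percentage points, exact permutation p = 0.1). GGI had a share of 100%, 99.2% and 56.4% of these reads in IL-17neg and 0%, 9.61% and 43.0% in IL-17pos. R1 and R2 come from the same libraries and are not independent measurements.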

How the data were processed

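RNA of FACS-sorted pLN γδ T cells was amplified by RACE PCR for Trdv1 and Trdv5 and sequenced on a MiSeq as read pairs. The authors aligned the reads with MiXCR against IMGT, and its version is not given in the sources used here. In the deposited tables, the count gives the raw reads of each clonotype, and the fraction expresses the same reads relative to all reads of that table. The deposited borders give the positions of V, D and J within the CDR3, and the submitters' processing notes name the build mm10.

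Joins without N were found from these borders. Their bases were then read against GRCm38 (RefSeq): a match scored 1 and a mismatch -3, V and J were fitted first, Trdd2 needed 4 bases, and up to 4 P bases were accepted at a whole end. MiXCR borders can include P bases and others, so both counts are given. The splitting step was tested on simulated joins.

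Each sample gave 1 value per measure. Groups (9 comparisons) were compared by their difference in means with exact two-sided permutation, 20 assignments, and within-sample differences (8 comparisons) with exact sign permutation, 64 assignments. The study's methods name a Mann-Whitney test. P-values were adjusted by the Benjamini-Hochberg method. Wilson intervals are at 95%, and a count of 0 allows 3 reads of the total.

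The members, lists and tests were chosen with earlier results of these data known. Alternatives were R2 tables, at least 10 reads, other weights and denominators, 95000 reads drawn (mean of 20 draws, seed 17), germline recounts, a replicate block and leaving out each sample. Chosen after seeing the files were the recount with P bases, leaving out the most-read join, leaving out low entries seen 50 times higher elsewhere, at least 8 Trdd2 bases, and the differences from Trdv5 and from N-added frames. Python 3.11.15, NumPy 2.4.6, pandas 2.3.3 and SciPy 1.17.1 were used.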

Additional observations from a re-analysis of the deposited data

How the results depend on the processing

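The 17 results gave 254 values under the alternatives, of which 212 kept their direction and their side of the threshold of 0.05, 37 reversed and 5 passed the threshold. The 9 group comparisons could not pass it in any setting, so their side of it says nothing about stability, and leaving out shared segment borders removed 0 entries. The GGI and EGY read share differences kept their direction in all settings that gave a value (-84.5 to -48.2 and 33.8 to 56.2 percentage points). The read share without N reversed only when P bases were counted as insertions (-0.114). IL-17pos 13-01 then had no join, so frames, trimming and sharing gave no value. The RRD read share reversed without the most-read join of each sample (-7.54).

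No result passed the threshold as reported. Among the other reversals, the clonotype share between groups was 4.86 in R2, 1.20 with at least 10 reads and 0.156 without low entries 50 times higher elsewhere. Between groups, V trimming gave 0.556 in R2, 0.0278 with at least 10 reads and 0.206 weighted by reads, and D 3′ trimming gave -1.35 in R2. Without N minus N-added, V trimming was -0.00191 in R2. D length was -0.0361 in the recount with P bases and -0.0495 with at least 8 Trdd2 bases. J trimming was -0.467 with at least 10 reads, -0.747 weighted by reads, -0.330 in the recount with P bases and -0.0912 without low entries seen elsewhere. The GGI clonotype share was 1.39 in R2, 11.4 with at least 10 reads, 10.9 weighted by reads and 8.27 without low entries seen elsewhere. The EGY clonotype share was -6.70 with at least 10 reads, -14.4 weighted by reads and -3.79 without low entries seen elsewhere. The RRD clonotype share was -3.63 in R2, -4.35 with at least 10 reads, -0.927 without the most-read joins and -4.91 without low entries seen elsewhere. Trdv1 minus Trdv5 was 0.0854 in R2. The cause of these reversals was not tested.

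Results that passed the threshold all had p = 0.03125, the smallest an exact sign permutation over 6 samples can give, before adjustment. The share found in another sample rose to 33.3 percentage points in the recount with P bases, 16.3 without the most-read joins and 15.0 with at least 8 Trdd2 bases. Over all settings it was 5.36 to 33.3 (p from 0.03125 to 0.25). Trdv1 minus Trdv5 was -7.68 weighted by reads and -1.67 with P bases counted as insertions.

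Leaving out each sample in turn gave 6.05 to 8.05 for the read and -3.79 to -1.34 for the clonotype share without N, 10.6 to 17.2 for the share found in another sample, -0.0750 to 1.01 for D 3′ trimming, -0.330 to 0.0948 for V trimming between groups, -0.266 to 0.450 for J trimming within samples, -0.613 to 0.295 for Trdv1 minus Trdv5, -16.4 to 0.982 for the GGI, -3.87 to 11.9 for the EGY and 0.0249 to 4.97 for the RRD clonotype share. Between groups, D 5′ trimming ran from 0.243 to 1.17 and J trimming from 0.132 to 1.61, and D length within samples from 0.239 to 0.762. Reversals came from leaving out IL-17pos 13-01 (V trimming, J trimming, GGI and EGY), IL-17neg 13-01 or IL-17pos 27-01 (D 3′ trimming), and these 2 or IL-17neg 27-01 (Trdv1 minus Trdv5).

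With the sample number as a replicate block, the read share difference stayed 6.89 percentage points with an exact permutation p = 0.25, the smallest that 3 pairs allow. Same-numbered samples' deviations correlated at 0.186, -0.00541 and 0.0188 over 220 clonotypes. Few joins are shared, so this cannot decide pairing. Reads without molecular identifiers and the unknown number of sorted cells limit all shares, and IL-17neg 20-01 and 13-01 rest on 1 and 2 joins with at least 10 reads.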
